A study of Mus musculus with 8 samples.

Results

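Glucocorticoid receptor (GR) peaks were examined around 5 of 21911 protein-coding genes in the annotation, namely Alas1, Fech, Por, Hmox1 and Bach1. Their products make, break down or sense heme, or pass electrons to enzymes that bind it. Peak regions of the 6 GR libraries that overlapped were merged into 51431 sites, and the 80 sites centred within 50 kb of 1 of the 5 gene starts were taken, 15 at Alas1, 33 at Por, 8 at Hmox1 and 12 each at Fech and Bach1. The same windows held 19 of the 8068 FOXO1 regions. GR is a hormone-activated transcription factor, and FOXO1 is a forkhead transcription factor that insulin signalling keeps out of the nucleus. Both were mapped by chromatin immunoprecipitation followed by sequencing (ChIP-seq) on snap-frozen whole liver of adult male C57BL/6J mice without any transgene, taken at lights-off.

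There were 3 groups of 2 GR libraries each. The ctrl. mice ate freely until the last week, when food was limited to the night. The cal. res. mice were brought to reduced rations step by step and received their daily food at lights-off. The CORT mice were fed at night and were injected into the peritoneum with corticosterone, the main glucocorticoid of mice, every day for a week shortly before lights-off. The labels do not say whether the ctrl. mice of these libraries were injected with vehicle. All groups ate chow. The FOXO1 list came from 2 cal. res. libraries that were merged before peaks were called, so it has no replicate spread and no ctrl. or CORT counterpart. Peak lists hold no expression, so the cell types of the tissue and the transcript levels of these genes were not analysed here.

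Heme is an iron-bearing porphyrin, and the liver uses much of it in cytochrome P450 enzymes. Alas1 encodes the first and rate-limiting enzyme of heme synthesis in liver, and Fech encodes ferrochelatase, which inserts iron in the last step. Por encodes the reductase that passes electrons from NADPH to the P450 enzymes and to heme oxygenase. Hmox1 encodes the inducible heme oxygenase, which opens the heme ring and releases iron, carbon monoxide and biliverdin. Bach1 encodes a heme-binding repressor that sits with small MAF proteins on the elements to which NRF2 also binds, and heme releases it from Hmox1.

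The sequences below are the 200 bp around the summit of the strongest GR site of 4 of the genes, that is the site with the highest mean within-list percentile over the 6 libraries. They are read 5′ to 3′ on the plus strand of mm10 (GRCm38), and the summit is that of the library with the highest percentile. Capitals mark every match to 1 of 6 strings on either strand: the GR hexamer AGAACA, that hexamer followed after 3 bases by its reverse complement (a palindromic GR element), the forkhead string GTAAACA, the STAT string TTCNNNGAA, the C/EBP string TTGCNNAA, and the CNC-MAF string TGACNNNGC that BACH1 and NRF2 dimers read. The last can overlap the AP-1 string TGAGTCA. A match is a run of letters and no proof of a bound factor.
Alas1, 18.4 kb upstream, chr9:106266998-106267197: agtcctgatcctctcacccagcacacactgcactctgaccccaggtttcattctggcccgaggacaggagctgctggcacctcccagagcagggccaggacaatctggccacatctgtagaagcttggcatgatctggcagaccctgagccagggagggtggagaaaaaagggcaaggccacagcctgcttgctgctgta
Por, 29.4 kb upstream, chr5:135640534-135640733: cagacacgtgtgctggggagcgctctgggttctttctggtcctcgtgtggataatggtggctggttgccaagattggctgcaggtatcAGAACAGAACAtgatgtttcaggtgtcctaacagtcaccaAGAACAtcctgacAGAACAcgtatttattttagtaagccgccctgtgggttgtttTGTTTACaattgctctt
Hmox1, 9.67 kb upstream, chr8:75083855-75084054: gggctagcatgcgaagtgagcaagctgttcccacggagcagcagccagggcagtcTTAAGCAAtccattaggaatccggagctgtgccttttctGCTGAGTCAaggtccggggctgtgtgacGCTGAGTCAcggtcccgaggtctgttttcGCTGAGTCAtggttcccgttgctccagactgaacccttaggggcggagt
Bach1, 22.5 kb upstream, chr16:87676353-87676552: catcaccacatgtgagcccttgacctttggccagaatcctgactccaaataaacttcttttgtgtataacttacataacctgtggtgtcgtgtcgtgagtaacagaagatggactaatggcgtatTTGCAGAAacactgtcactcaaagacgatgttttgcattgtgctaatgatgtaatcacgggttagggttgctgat

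The strongest Por site held 4 GR hexamers, a pair of them sharing bases, and 1 forkhead string. Of 51428 sites searched, 25 (0.0486%) held at least 4 hexamers. The strongest Hmox1 site held 3 CNC-MAF strings, all read as GCTGAGTCA and so also as the AP-1 string, and 1 C/EBP string. At least 3 CNC-MAF strings were found in 22 of all sites (0.0428%). The closest of the 3 was centred 1.5 bp from the GR summit. The Alas1 window held none of the 6 strings although this site ranked above nearly all others in every list, and the Bach1 window held 1 C/EBP string.

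A further 3 windows are shown because results below turn on them. They were chosen after their values were seen.
Por, 13.8 kb upstream, chr5:135656120-135656319: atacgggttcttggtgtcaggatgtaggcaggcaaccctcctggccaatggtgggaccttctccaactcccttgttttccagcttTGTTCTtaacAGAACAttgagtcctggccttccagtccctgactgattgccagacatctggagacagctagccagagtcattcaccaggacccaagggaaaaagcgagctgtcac
Hmox1, 3.94 kb upstream, chr8:75089582-75089781: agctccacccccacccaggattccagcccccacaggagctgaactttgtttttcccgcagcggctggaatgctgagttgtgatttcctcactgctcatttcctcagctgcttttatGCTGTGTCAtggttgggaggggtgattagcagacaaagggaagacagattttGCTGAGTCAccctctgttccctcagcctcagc
Alas1, 13.0 kb downstream of the start, chr9:106235513-106235712: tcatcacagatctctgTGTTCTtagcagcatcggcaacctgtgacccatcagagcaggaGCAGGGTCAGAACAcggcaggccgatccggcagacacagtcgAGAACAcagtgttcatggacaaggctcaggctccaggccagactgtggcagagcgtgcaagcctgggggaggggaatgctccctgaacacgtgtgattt

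The Por window held 2 GR hexamers that face away from each other across 4 bases, an arrangement in 4 of all 51428 sites (0.00778%), itself included, and not the palindromic element as searched. The Hmox1 window held 2 CNC-MAF strings, a number reached by 291 of all sites (0.566%). The Alas1 window held 3 hexamers, 1 of which shares bases with a CNC-MAF string, and 137 of all sites (0.266%) held at least 3 hexamers.

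Over all 80 sites, a GR hexamer lay in 18 (22.5%), beside 18.4% of all sites. CNC-MAF strings lay in 9 (11.2%), beside 9.98%, C/EBP strings in 13 (16.2%), beside 15.1%, STAT strings in 9 (11.2%), beside 8.16%, and forkhead strings in 3 (3.75%), beside 5.19%. The palindromic element lay in 0 of the 80 and in 0.0642% of all sites. As a group the windows were therefore near the background for these strings. The repeated hexamers of Por and the repeated CNC-MAF strings of Hmox1 were features of the few sites printed above. GR hexamers lay in 7 of the 15 Alas1 sites, 5 of the 33 Por sites, 3 of the 12 Fech sites, 2 of the 12 Bach1 sites and 1 of the 8 Hmox1 sites.

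A site counted as held by a group if each of the 2 libraries carried a peak in it. Of the 80 sites, ctrl. held 25 (31.2%), cal. res. 23 (28.8%) and CORT 41 (51.2%), and all 3 groups held 19 (23.8%). Over all 51431 sites the shares were 21.4%, 27.9%, 43.7% and 15.7%. A further 30 sites (37.5%, beside 37.4% of all sites) had a peak in 1 library only. Of these 30, 21 were in CORT replicate 2, which had the longest list, beside 8705 of 19242 such sites over the genome. Each of the 5 genes had a site held by ctrl., by cal. res. and by CORT, as did 48.5%, 47.2% and 60.9% of protein-coding genes. A site held by all 3 groups was present at 4 of the 5, all but Fech, and at 37.9% of genes.

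**Figure D1:**
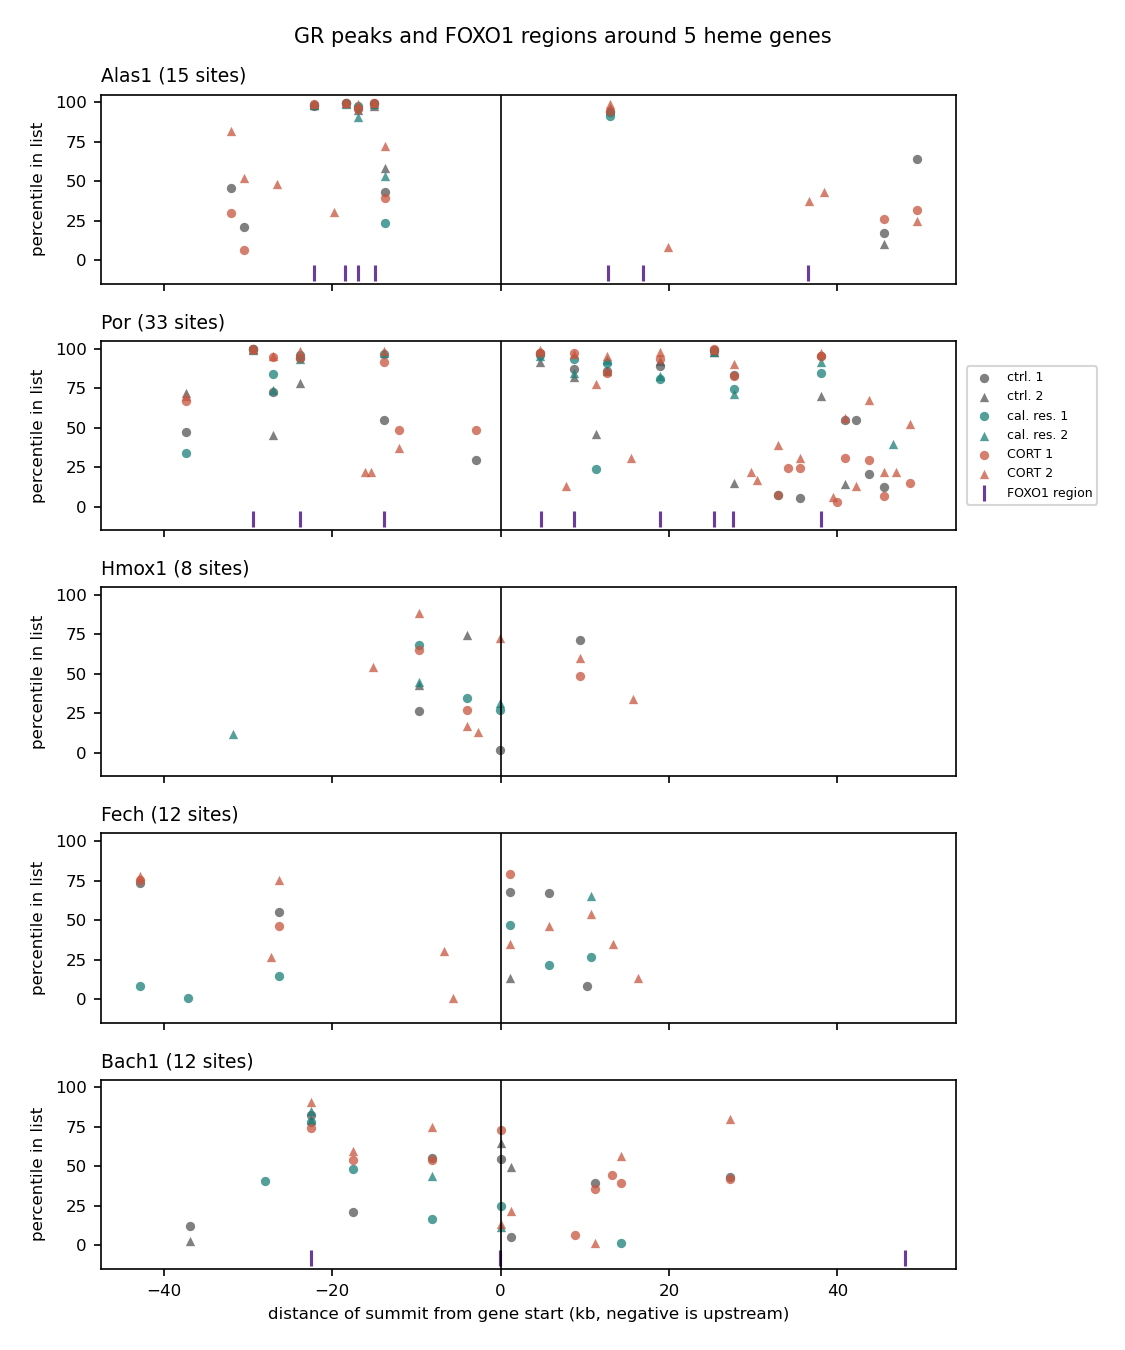
GR peaks in the 50 kb on either side of the 5 gene starts, with the distance of each site's summit from the start in kb on the x axis (upstream negative) and the within-list percentile of fold enrichment in each library on the y axis. Circles and triangles are replicates 1 and 2, and purple ticks are FOXO1 regions at the distance of their centre. Peaks above percentile 90 in most libraries stood at Alas1 and Por, and Hmox1 and Fech had no FOXO1 tick.

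The fold enrichment of a peak depends on the library it was called in, so a peak is given by its percentile, the share of regions of its own list with the same or a lower fold enrichment, and a library without a peak at a site is set to 0. Lists ran from 12458 regions in ctrl. replicate 2 to 39136 in CORT replicate 2. The ctrl. lists differed most from each other, with 36234 and 12458 regions, and a site that both held had to be in the shorter one. In the names of the libraries, ctrl. replicate 2 and both cal. res. libraries share 1 style, and ctrl. replicate 1 and both CORT libraries another. The labels do not call this a batch, and cal. res. against CORT cannot be told apart from it, so values within a style are given beside the main ones. Each such value rests on a single ctrl. library, replicate 2 for cal. res. and replicate 1 for CORT. Sites at Per1, Fkbp5, Tsc22d3 and Tat, 4 known GR targets, had a strongest peak at percentile 58.9 or above in all 6 lists.

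Alas1 (ENSMUSG00000032786.16, minus strand of chr9:106233455-106248654) had a cluster of GR peaks that ranked near the top of every list. At its strongest site, 18.4 kb upstream and between genes, the percentiles were 99.6 and 99.5 (ctrl.), 99.6 and 99.2 (cal. res.) and 99.4 and 99.8 (CORT). The groups overlapped. The cal. res. mean lay 0.133 points below ctrl. (99.4 ± 0.336 against 99.5 ± 0.0803, SD, n = 2; exact permutation p = 1), and the CORT mean 99.6 ± 0.298 lay 0.0774 points above it (exact permutation p = 1). With 2 libraries against 2 the smallest p is 0.333, for this and for every such comparison here.

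A run of sites held by all 3 groups lay upstream of Alas1, at 13.7, 15.0, 16.9, 18.4 and 22.2 kb from its start. The site at 15.0 kb stood at 99.8 and 97.4 (ctrl.), 99.0 and 98.9 (cal. res.) and 99.6 and 99.7 (CORT). The site at 22.2 kb stood at 98.0 and 98.6, 98.5 and 98.3, and 99.2 and 99.2 in the same order. Its CORT values lay above both ctrl. values by 0.906 points on average (exact permutation p = 0.333), an order that was lost with 12458 regions kept per library (94.2 and 98.6 for ctrl., 98 and 97.6 for CORT). The site at 13.7 kb was weaker, between 23.6 and 72.1. By distance to the nearest transcript start of a protein-coding gene, 7 of the 15 sites of the window belonged to the neighbour Poc1a. Alas1 itself and Twf2 had 3 each, so nearness alone does not assign this cluster to Alas1.

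Most of the Alas1 gene body, but not the start of the gene record itself, lay inside 1 merged site 18856 bp wide. Each of its transcript starts from 0.784 to 0.924 kb downstream of the gene start was covered by a region in all 6 libraries. The site stood at percentile 93.7 and 96.7 (ctrl.), 91.2 and 95.4 (cal. res.) and 94.4 and 99.2 (CORT) (cal. res. minus ctrl. -1.89, exact permutation p = 0.667; CORT minus ctrl. 1.59, exact permutation p = 0.667). Its make-up differed between libraries. The ctrl. libraries had 4 and 3 regions in it, covering 15706 and 16950 bp, the CORT libraries 3 and 1, covering 17695 and 18856 bp, and the cal. res. libraries 6 and 9 shorter ones, covering 6992 and 8197 bp. The highest peak of the site lay 17 to 17.1 kb from the gene start, just beyond the end of the gene, in ctrl. replicates 1 and 2 and CORT replicate 1, and 13.0 to 13.1 kb from it, inside the gene, in the other 3 libraries.

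Fech (ENSMUSG00000024588.9) lies on the minus strand of chromosome 18 from 64452914 to 64490251. None of its 12 sites had a mean percentile above 40.4, and no site was held by all 3 groups. The strongest site, which is also the nearest to the gene start, lay 1.14 kb inside it over a promoter. Its percentiles were 67.9 and 13.4 (ctrl.), 47.1 and no peak (cal. res.) and 79.2 and 35.0 (CORT), so the groups overlapped throughout (cal. res. minus ctrl. -17.1, exact permutation p = 0.667; CORT minus ctrl. 16.4, exact permutation p = 0.667). Within a name style the differences turned to 10.2 for cal. res. and -10.8 for CORT.

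A site 10.7 kb inside Fech, over the start of a shorter transcript, was held by cal. res. with no peak in either ctrl. library. It stood at 26.6 and 65.0 in the cal. res. libraries, had no peak in CORT replicate 1 and stood at 54.0 in CORT replicate 2. It was the only one of the 80 sites that cal. res. held without any ctrl. peak, beside 433 of all 51431 sites. Its cal. res. mean was 45.8 ± 27.1 (SD, n = 2, exact permutation p = 0.333 against ctrl.). With 12458 regions kept in every library, only cal. res. replicate 2 had a peak there.

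Por (ENSMUSG00000005514.14, plus strand of chr5:135670033-135735326) had more GR sites held by ctrl. within 50 kb of its start, 12, than any other protein-coding gene. For cal. res. it had 11, a number reached by 24 genes (0.11%), and for CORT 19, reached by 4 genes (0.0183%). Its 10 sites held by all 3 groups were matched or passed at 10 genes, itself included, and the median gene had 0. With 12458 regions kept per library, the groups held 10, 11 and 12 Por sites and shared 10. The gene record spans 65.3 kb, and its first start, from which distances are given, lies 19 kb upstream of the first start in the basic annotation set. Windows around the basic starts, chosen after seeing the data, gave Por 13, 13 and 24 held sites and 11 shared ones, and 1 (ctrl.), 6 (cal. res.), 1 (CORT) and 1 (shared) genes reached these numbers. In the windows used here, 29 of the 33 sites had a Por transcript start as the nearest one of a protein-coding gene. The other 4 were nearest to Rhbdd2. Starts of non-coding genes were left out of this count.

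**Figure D2:**
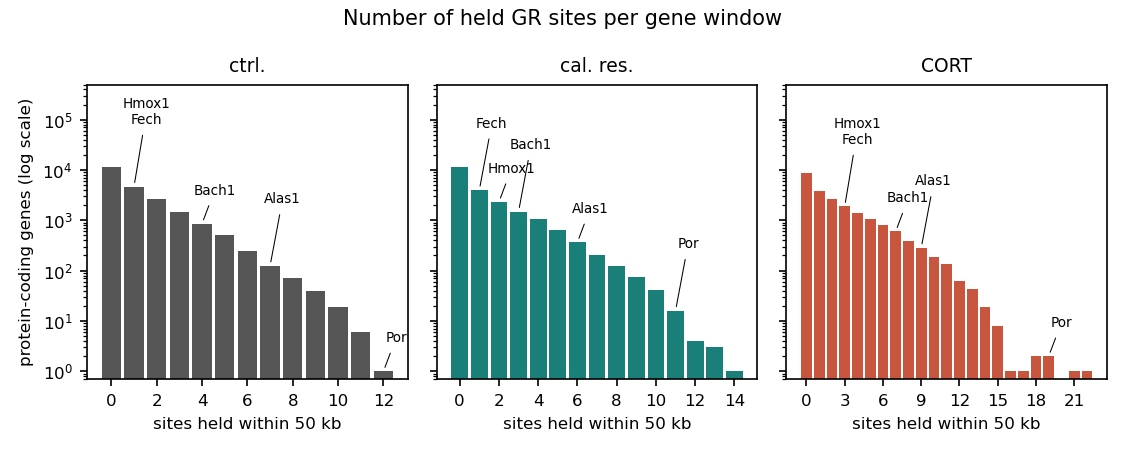
Number of protein-coding genes (y axis, log scale) by the number of GR sites that a group held within 50 kb of the gene start (x axis), 1 panel per group, with the 5 heme genes marked. Por is the single gene with 12 ctrl. sites and sits near the right end in the other panels, and Hmox1 and Fech lie among the common low counts.

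The strongest Por site, 29.4 kb upstream in an intron of Rhbdd2, stood at 99.5 and 99.3 (ctrl.), 99.9 and 99.8 (cal. res.) and 99.7 and 99.8 (CORT). Both other groups lay above both ctrl. libraries, by 0.44 points for cal. res. (99.8 ± 0.0655 against 99.4 ± 0.168, SD, n = 2) and 0.371 points for CORT (99.8 ± 0.0757), with an exact permutation p = 0.333 each. The fold enrichments behind these ranks were 41.8 and 23.0 (ctrl.), 109 and 74.1 (cal. res.) and 62.3 and 90.6 (CORT). Summits of the 6 libraries lay within 23 bp of each other.

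The site 13.8 kb upstream of Por, in an intron of the long non-coding gene Gm43091, was the one place in the 80 where both treated groups had strong peaks and ctrl. did not hold the site. The ctrl. libraries stood at percentile 54.5 and at no peak, with fold enrichment 5.99 and 0. The cal. res. libraries stood at 96.8 and 97.5, with fold enrichment 24.8 and 23.4, and the CORT libraries at 91.6 and 98.3, with fold enrichment 17.7 and 34.6. All 4 treated libraries thus lay above both ctrl. libraries. The differences were 69.9 points for cal. res. (97.2 ± 0.484 against 27.3 ± 38.6, SD, n = 2) and 67.7 points for CORT (94.9 ± 4.78), each with an exact permutation p = 0.333. They were 97.2 and 40.4 points within a name style, the first against the ctrl. library without a peak.

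This Por site passed percentile 90 in all 4 treated libraries. Of 1141 sites that did so over the genome, 31 were not held by ctrl., and 21 of these overlapped FOXO1. With 12458 regions kept per library, neither ctrl. library had a peak there, and the other libraries stood at 94.2, 96.3, 80.0 and 94.8. It carries the outward-facing hexamers printed above, whose nearest match was centred 2 bp from the GR summit. The site had been singled out after its values were seen, so the count of sites is its background and not a test.

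The annotation gives Por several transcript starts, and GR regions covered some of them. The record's first start had no region over it in any library. Starts 4.55 kb downstream lay in a region in all 6 libraries, at percentile 97.5 and 91.4 (ctrl.), 96.0 and 95.4 (cal. res.) and 97.4 and 99.0 (CORT). Starts 19 and 19.1 kb downstream did too, at 89.0 and 92.2, 81.0 and 82.6, and 93.3 and 98.0. At these starts both cal. res. libraries lay below both ctrl. libraries (difference -8.78 points) and both CORT libraries above them (5.08 points), with an exact permutation p = 0.333 each. Within a name style the differences were -10.4 and 6.7 points. Neither order held with 12458 regions kept per library, at 67.9 and 92.2 (ctrl.), 65.4 and 73.8 (cal. res.) and 84.3 and 93.7 (CORT).

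At the site nearest to the first Por start, 2.88 kb upstream, only ctrl. replicate 1 (29.3) and CORT replicate 1 (48.4) had a peak. CORT held 3 Por sites with no ctrl. peak, at 12 kb upstream (48.4 and 37.3) and at 32.9 kb (7.14 and 39.0, with cal. res. replicate 1 at 7.06) and 48.6 kb downstream (15.0 and 52.4). None of these 3 had a peak once 12458 regions were kept per library. The site 27.0 kb upstream stood at 72.8 and 45.0 (ctrl.), 83.8 and 73.9 (cal. res.) and 95.0 and 95.5 (CORT), all 4 above both ctrl. values, with an exact permutation p = 0.333 for each group. Within a name style the differences were 33.9 and 22.5 points.

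**Figure D3:**
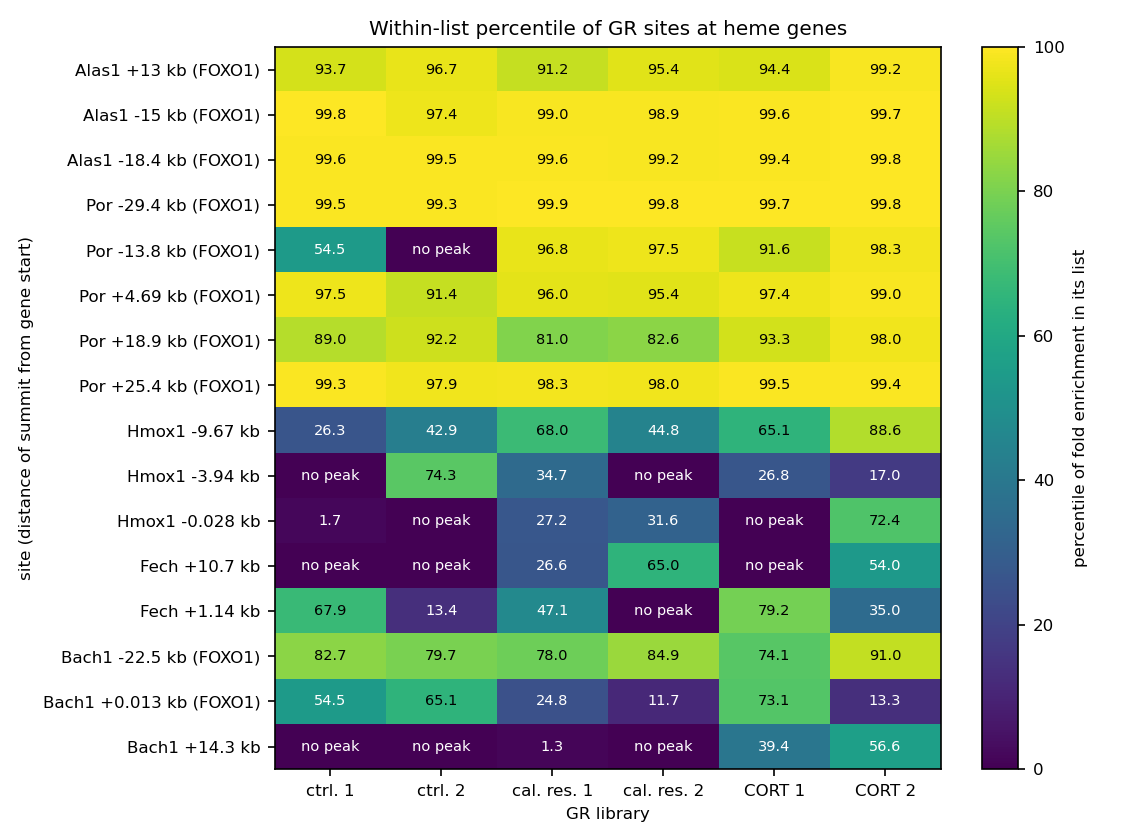
Within-list percentile of fold enrichment (colour and printed value) at 16 sites of the 5 genes, 1 row per site named by the distance of its summit from the gene start in kb, and 1 column per GR library; FOXO1 marks sites that overlap a FOXO1 region. The Por site 13.8 kb upstream is at 54.5 and without a peak in ctrl. and at 91.6 or above in the other 4 libraries, and Hmox1, Fech and Bach1 rows vary between replicates.

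Hmox1 (ENSMUSG00000005413.8, plus strand of chr8:75093621-75100589) had 8 sites, of which 1 was held by all 3 groups. That site, 9.67 kb upstream with the 3 CNC-MAF strings, stood at percentile 26.3 and 42.9 (ctrl.), 68.0 and 44.8 (cal. res.) and 65.1 and 88.6 (CORT). Fold enrichments were 4.27 and 4.28, 7.58 and 4.74, and 8.2 and 13.9. Both treated groups lay above both ctrl. libraries, cal. res. by 21.8 points (56.4 ± 16.4 against 34.6 ± 11.8, SD, n = 2) and CORT by 42.3 points (76.9 ± 16.6), with an exact permutation p = 0.333 each. The gap between cal. res. replicate 2 and ctrl. replicate 2 was small beside the spread within each pair. The differences within a name style were 13.5 and 50.6 points. Without cal. res. replicate 1 the cal. res. difference was 10.2 points. The order was lost with 12458 regions kept per library, at no peak and 42.9 (ctrl.), 41.7 and 17 (cal. res.) and 17.5 and 64.3 (CORT), with differences of 7.87 (exact permutation p = 1) and 19.4 points (exact permutation p = 0.667).

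The second Hmox1 element, 3.94 kb upstream with 2 CNC-MAF strings, did not have that order with all regions either. It had no peak in ctrl. replicate 1 and stood at 74.3 in ctrl. replicate 2. It stood at 34.7 in cal. res. replicate 1, had no peak in replicate 2, and stood at 26.8 and 17 in CORT. At the Hmox1 start, the nearest site was held by cal. res. alone, at 27.2 and 31.6, with 1.68 and no peak in ctrl. and no peak and 72.4 in CORT (cal. res. minus ctrl. 28.6, exact permutation p = 0.333). With 12458 regions kept per library, CORT replicate 2 alone had a peak there, at 13.4.

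Bach1 (ENSMUSG00000025612.5, plus strand of chr16:87698945-87733346) had 2 sites held by all 3 groups. The strongest, 22.5 kb upstream and between genes, stood at 82.7 and 79.7 (ctrl.), 78.0 and 84.9 (cal. res.) and 74.1 and 91.0 (CORT). The groups overlapped (cal. res. minus ctrl. 0.268, exact permutation p = 1; CORT minus ctrl. 1.36, exact permutation p = 1). At the Bach1 start the percentiles were 54.5 and 65.1 (ctrl.), 24.8 and 11.7 (cal. res.) and 73.1 and 13.3 (CORT). There both cal. res. libraries lay below both ctrl. libraries (difference -41.5 points, 18.3 ± 9.26 against 59.8 ± 7.43, SD, n = 2; exact permutation p = 0.333; -46.8 points within a name style), while the CORT replicates stood on either side. With 12458 regions kept per library, ctrl. replicate 1 and both cal. res. libraries had no peak there, so the order was not kept, and ctrl. replicate 2 stood at 65.1 and CORT replicate 1 at 36.5. A site 14.3 kb inside Bach1 was held by CORT at 39.4 and 56.6 with no ctrl. peak, and cal. res. replicate 1 had a peak at 1.31. No library had a peak at that site with 12458 regions kept.

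Of the 19 sites with a peak in all 6 lists, both cal. res. percentiles lay above both ctrl. percentiles at 4 and below them at 2, beside 11.5% and 20.9% of the 8097 such sites over the genome. Both CORT percentiles lay above both ctrl. percentiles at 8 and below at 0, beside 26.6% and 5.25%. For the strongest site of each gene, 10 comparisons were made, and the Benjamini-Hochberg adjusted exact permutation p lay between 0.833 and 1.

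Sites called gained were held by cal. res. or CORT and not by ctrl. Cal. res. gained 4 of the 80 (5.0%, beside 11.5% of all sites) and CORT gained 19 (23.8%, beside 24.3%), so neither share stood above the genome-wide one. A cal. res. gain was present at 4 of the 5 genes (27.1% of all genes), a CORT gain at 5 of 5 (48.9%), and a site held by CORT with no ctrl. peak at 2 of 5 (15.2%). Of the 19 CORT gains, 14 had a peak in ctrl. replicate 1, 1 in ctrl. replicate 2 and 4 in neither. Over all sites, the 12522 CORT gains split into 10145, 174 and 2203 in the same order. Without ctrl. replicate 2, ctrl. held 44 of the 80 sites in place of 25, and CORT gained 5 in place of 19.

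**Figure D4:**
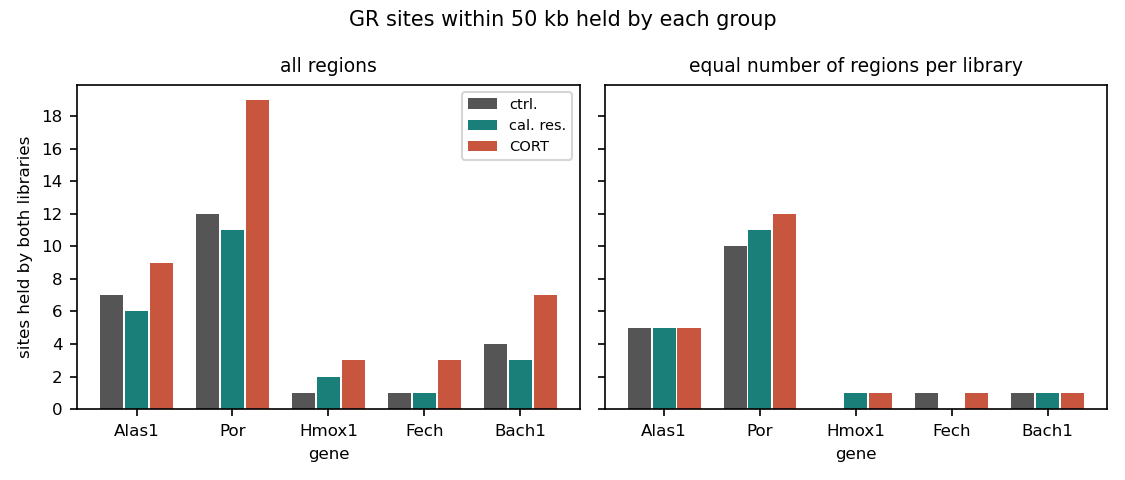
Number of sites within 50 kb of each gene that both libraries of a group held (y axis), for all regions (left) and for 12458 regions per library (right), with grey, green and orange bars for ctrl., cal. res. and CORT. CORT bars exceed the others on the left, by 19 to 12 and 11 at Por, and on the right the groups are level at Alas1 and Bach1 and stand at 10, 11 and 12 at Por.

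Regions were also counted in each window and library. At Por the counts were 19 and 14 (ctrl.), 18 and 13 (cal. res.) and 25 and 30 (CORT), both CORT values being the highest (exact permutation test over 15 groupings, p = 0.133, smallest possible 0.0667). At Alas1 they were 15 and 11, 13 and 16, and 13 and 14 (exact permutation p = 0.867). Hmox1 had 2 to 7 regions (exact permutation p = 0.8), Fech 1 to 10 (exact permutation p = 0.733) and Bach1 3 to 10 (exact permutation p = 0.333). Per 10000 regions of the list, the 5 windows together held 14.1 and 25.7 regions (ctrl.), 20.3 and 19.2 (cal. res.) and 18.3 and 17.6 (CORT), so the excess in CORT was not seen on this scale.

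FOXO1 regions lay at 3 of the 5 genes, beside 33.3% of protein-coding genes. Por had 9, Alas1 7 and Bach1 3, and Hmox1 and Fech had 0. The largest q was 9.84e-06 in the FOXO1 list and up to 0.0998 in the GR lists, so weaker FOXO1 peaks are not in it. At least 7 FOXO1 regions were found at 104 genes (0.475%) and at least 9 at 26 (0.119%). Of the 19 regions, 18 overlapped a GR site, beside 93.6% of all FOXO1 regions, and the exception lay 48.0 kb downstream of the Bach1 start. Of the 80 GR sites, 17 (21.2%) overlapped FOXO1, beside 13.9% of all sites. Of the sites that all 3 groups held, FOXO1 overlapped 15 of 19 (78.9%), beside 50.7% over the genome. Of these 15, 5 were at Alas1 and 8 at Por. The 19 sites were wider than all sites that the 3 groups held (median 1523 bp, beside 1139 bp). They also ranked higher (median of the mean percentiles 90, beside 73.4). Whether width or rank accounts for the share was not tested. Of the other 61 sites, FOXO1 overlapped 2 (3.28%), beside 6.99%.

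The Por site 13.8 kb upstream was 1 of those 2. Its FOXO1 region, at percentile 88.7 of the FOXO1 list, had a summit 1 bp from a GR summit. The other was at Alas1, 36.6 kb downstream of the start over a Twf2 promoter, where a FOXO1 region at percentile 96.3 met a GR peak in CORT replicate 2 alone, at 37.3. The highest FOXO1 region of the 5 windows, at percentile 98.8, lay in a Por intron 25.4 kb downstream. GR stood there at 99.3 and 97.9 (ctrl.), 98.3 and 98.0 (cal. res.) and 99.5 and 99.4 (CORT). At the strongest sites of Alas1, Por and Bach1 the FOXO1 percentiles were 56.7, 88.0 and 87.7, and at the Bach1 start 20.1, so FOXO1 rank and GR rank were not the same order.

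A list of 49 other genes was looked up for context. It held genes of heme synthesis (7), breakdown (4), transport (10) and scavenging (4) and of iron supply (9). It also held 3 redox partners, 6 BACH1 partners and related factors, and 6 heme-responsive or Alas1-regulating factors. GR sites held by ctrl. lay within 50 kb of 41 of them (83.7%), by cal. res. of 41 (83.7%), by CORT of 43 (87.8%) and by all 3 groups of 37 (75.5%). FOXO1 regions lay near 37 (75.5%). All 5 shares were above those of all protein-coding genes given earlier. That background takes every protein-coding gene, expressed in liver or not, and the list was chosen with earlier results of these data known. The shares also differed by role. Sites held by all 3 groups lay near 50% of the transport genes and 100% of the redox partners. FOXO1 regions lay near 42.9% of the synthesis genes and 100% of the redox partners. Among the other synthesis genes, sites held by all 3 groups numbered 4 at Alad, which joins the precursors that ALAS1 makes, 3 at Cpox, and 0 at Alas2, the erythroid counterpart of Alas1, and at Urod. Of the 4 breakdown genes, 3 had such a site, with 4 sites at Blvrb and 1 each at Hmox2, the constitutive heme oxygenase, and Ugt1a1, which conjugates bilirubin. Of the 6 genes for MAF partners and related factors, 5 had one, with 6 sites at Maff and 3 at Nfe2l2, the gene of NRF2. Hamp, the gene of the iron hormone hepcidin, had 7.

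Among the 48 of these genes that had a site, the one whose strongest site was most like that of Alas1 was Hmox2, with a mean absolute difference of 0.395 percentile points over the 6 lists. Hmox2 was also closest to Por (0.348). For Bach1 it was Blvrb (6.27), for Hmox1 Tfrc, the transferrin receptor (15.4), and for Fech Slc11a2 (18.5). Sites near the top of every list have little room to differ, and the weaker sites varied more between replicates. The sizes of these differences therefore cannot be compared between genes. These are descriptions over the same 6 lists for every gene.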

How the data were processed

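GR ChIP-seq peak lists of 6 mouse liver libraries and 1 FOXO1 list of 2 merged libraries were used, grouped by the sample titles. The authors mapped reads to mm10 with BWA, discarded duplicates and multimapping reads, and called peaks with MACS2 on each GR library alone. In the deposited lists, fold enrichment is the ratio of the pileup at the summit to the local background. The authors gave each p-value and q-value as −log10. The largest q was 0.0994 to 0.0998 in the GR lists and 9.84e-06 in the FOXO1 list. The authors' methods state that blacklisted regions were removed, and the GR lists are labelled as filtered while the FOXO1 one is not. Whether input served as control is not given in the sources used here. The study states a nominal sequencing depth, and read totals of single libraries were not analysed here, so the depth behind each list is unknown.

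Of rows with equal start and end, the one with the highest fold enrichment was kept, and GR regions sharing at least 1 bp were merged into sites. Genes and transcript starts came from GENCODE release M21 (comprehensive set), on GRCm38, whose lengths no peak exceeded. A promoter lay within 1 kb of a transcript start. Sequences came from the RefSeq GRCm38 assembly, searched as strings in 200 bp on both strands; 51428 sites lay on chromosomes that could be searched. Libraries of 2 biological replicates per group were compared with two-sided exact permutation tests, and alternatives are given with the limits. The code for site calls was run on 2945 simulated sites, of which 100% were recovered. The simulated sites lay too far apart to merge, so the run does not bear on close or chained peaks. Python 3.11.15, NumPy 2.4.6, pandas 2.3.3, pysam 0.24.0 and matplotlib 3.10.9 were used.

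The 5 genes, the list of 49 genes and the motifs were chosen with earlier results of these data known. Sites given in full were the strongest and the nearest site of each gene and those held by cal. res. or CORT with no ctrl. peak. All other sites named singly were chosen after their values were seen. No Fech sequence is printed. The values of 1 gene on the list are not reported here.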

Additional observations from a re-analysis of the deposited data

How the results depend on the processing

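The number of sites that each group held moved with the way peaks were counted, above all for CORT. With the reported counts at 25, 23, 41 and 19 for ctrl., cal. res., CORT and all 3 groups, and gains of 4 and 19 for cal. res. and CORT, keeping 12458 regions per library gave 20 CORT sites and gains of 2 and 4. A q of at most 1e-05 gave 27 CORT sites and 11 CORT gains, and windows of 25 kb gave 24 and 8. Counting a site when either library had a peak gave 46, 37, 74 and 30, with gains of 7 and 30. Within a name style CORT gained 5. Leaving out 1 library gave 25 to 44 ctrl. sites, 23 to 35 cal. res. sites, 41 to 69 CORT sites, 19 to 21 sites of all 3 groups, 1 to 14 cal. res. gains and 5 to 46 CORT gains. The libraries behind these ends were ctrl. replicate 2 (44, 1 and 5), cal. res. replicate 2 (35 and 14) and CORT replicate 1 (69 and 46). The 17 sites with FOXO1 kept within 1.5 times that number in all 15 alternatives. Keeping the stronger 50% of FOXO1 regions gave 13. The other alternatives changed GR peaks, overlaps or windows and left the FOXO1 list as it was, so they say little about that list. Windows around the starts of the basic annotation set, added after seeing the data, changed none of the reported counts by over 1.5 times.

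Of 90 alternative values for the 10 strongest-site differences, 75 kept their direction and 15 reversed, and 4 of the 10 never reversed. With equal regions CORT minus ctrl. turned to -0.124 at Alas1 and -9.49 at Bach1. Within a name style it turned to -0.165 at Bach1 and -10.8 at Fech, and cal. res. minus ctrl. to 10.2 at Fech. Leaving out 1 library gave, for cal. res. and CORT, -0.37 to 0.105 and -0.133 to 0.288 at Alas1, -44.4 to 10.2 and -10.8 to 43.7 at Fech, and -3.17 to 3.7 and -7.05 to 9.77 at Bach1. The cause was not tested. With the replicate number as a block, the difference at the strongest Hmox1 site stayed 21.8 and 42.3 with a permutation p of 0.5 each, the smallest that the replicate block allows, and the block changed no call. The labels do not say that the numbers pair animals. With 2 libraries a group, no single site could pass 0.05.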
